A study of Mus musculus with 282 samples.

Results

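The genes described here are Mtor, Rptor, Rictor, Akt1s1, Deptor, Tsc1, Tsc2, Tbc1d7, Rheb and Ddit4, which encode parts of the mTOR complexes, the tuberous sclerosis complex, its target GTPase and a stress-induced protein that acts on that complex. They were chosen by symbol, and all 10 were found among the 15907 gene symbols of the deposited tables. The question followed across the study is whether transcripts of the pathway's own components differed when mTOR signalling was changed by a gene deletion, a drug, a feeding schedule or stress. The data are 3′ mRNA sequencing counts from mouse liver, in 282 libraries, and each library is taken as 1 mouse because the labels call the libraries biological replicates.

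All mice were male C57BL/6J animals of the genotypes below, housed singly under a light-dark cycle. Ages, drug doses and the clock time of the rapamycin, vehicle and tunicamycin injections are not given in the labels. Time is Zeitgeber time (ZT), in hours after lights on. The first table holds 13 arms of 18 libraries, with 3 at each of ZT 2, 6, 10, 14, 18 and 22. Uninjected wild-type (WT) mice were fed only at night, arrhythmically or ad libitum. Night-fed WT mice and night-fed mice lacking Bmal1 in the whole body (BMKO) were also injected with vehicle or with rapamycin, and BMKO mice were sampled uninjected as well. Night-fed mice with a liver-specific knockout of Tsc1 or of Raptor (gene symbol Rptor) were compared with night-fed mice carrying Albumin-Cre, a recombinase driven by a hepatocyte promoter. The deleted exons are not given, so a 3′ tag can come from a transcript that no longer encodes the whole protein. Arrhythmically fed WT mice received AZD8055 at dawn or at dusk, and their comparison group here is the uninjected arrhythmically fed arm, since the labels give no vehicle arm for that drug. The second table holds 3 arms of WT mice that all received tunicamycin, with 4 libraries at each of ZT 4, 10, 16 and 22. These mice were night-fed, arrhythmically fed, or arrhythmically fed with AZD8055 at dusk.

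The kinase mTOR works in a pair of protein complexes, marked by the subunit Raptor in mTORC1 and by Rictor in mTORC2. Growth factors act through AKT on the tuberous sclerosis complex of Tsc1, Tsc2 and Tbc1d7, which switches off the small GTPase Rheb, the direct activator of mTORC1. Amino acids bring mTORC1 to the lysosome, where Rheb resides. Akt1s1 (PRAS40) and Deptor bind mTOR and restrain it, and Ddit4 (REDD1) restrains mTORC1 by way of the tuberous sclerosis complex after hypoxia, energy shortage, glucocorticoids or endoplasmic reticulum stress. Rapamycin blocks mainly mTORC1, AZD8055 occupies the kinase's ATP site and blocks both complexes, and tunicamycin stops N-glycosylation and so causes endoplasmic reticulum stress. In liver, mTORC1 follows feeding and drives protein and lipid synthesis.

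Values are RPM, reads per 1000000 reads of the library, after rescaling of the libraries to a common effective size by the trimmed mean of M-values (TMM). Differences are on the scale log2(RPM + 0.5), averaged over the times of an arm, with limma's standard error (SE) and Benjamini-Hochberg adjusted p over all genes tested. A gene was called at an adjusted p under 0.05. Libraries held between 706440 and 14321171 reads in the first table and between 4853343 and 10057983 in the second. No library had 0 reads for any of the 10 genes, although Akt1s1 rested on a median of only 14 reads per library and Tbc1d7 on 30, against 183.5 for Ddit4. The 7 hepatocyte markers (Alb, Apoa1 and others) summed to median levels between 45356 and 95921 RPM over the 16 arms, and none of them was at 0 in any arm. In whole liver, fewer cells of a type and less RNA per cell cannot be told apart.

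The uninjected BMKO arm stands apart from the other arms of the first table, and comparisons with it follow those of the other arms. Its libraries were also in the fit that gave the SE and p-values of the rapamycin comparisons. Its ZT 6 replicate 1 library, of 2810019 reads, held the highest Deptor level of the whole series at 1052 RPM and the lowest Ddit4 level at 0.641 RPM, the latter from 2 reads. All mRNA ends were checked on the GENCODE annotation of GRCm38. The last 500 bases of Tsc2 (chromosome 17, 24595816 to 24632630, minus strand) overlap exons of Pkd1 on the opposite strand. Strand use in the counting is not given, so Tsc2 and Pkd1 reads cannot be told apart there. The other 9 genes had no such overlap, among them Mtor (chromosome 4, 148448611 to 148557683, plus strand), Tsc1 (chromosome 2, 28641228 to 28691167, plus strand) and Deptor (chromosome 15, 55112317 to 55259271, plus strand).

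Levels across the 13 arms of the first table were narrow for most of the complex and wide for Ddit4; the ranges in this paragraph leave out the tunicamycin arms. Mtor, the kinase, had arm means (n = 18) between 12.3 RPM in the Raptor knockout and 24.3 RPM under rapamycin in WT. Rptor, the mTORC1 scaffold, lay between 8.07 and 9.75 RPM in 11 of the 13 arms, with 5.10 RPM in the Raptor knockout and 12.4 RPM in uninjected BMKO. Rictor, the mTORC2 scaffold, was lowest of these arms in uninjected BMKO at 7.88 RPM and highest in the Raptor knockout at 17.8 RPM. Rheb had arm means between 16.2 and 23.6 RPM. Of the inhibitors, Deptor lay between 235 and 364 RPM, and Akt1s1 between 1.26 and 2.58 RPM apart from 6.42 RPM in uninjected BMKO. In the tuberous sclerosis complex, Tsc1 lay between 9.01 and 15.1 RPM apart from 7.23 RPM in its own knockout. Its GTPase-activating partner Tsc2 lay between 7.31 and 10.7 RPM and the small subunit Tbc1d7 between 3.16 and 4.85 RPM, apart from 17.3 and 7.60 RPM in uninjected BMKO.

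**Figure D1:**
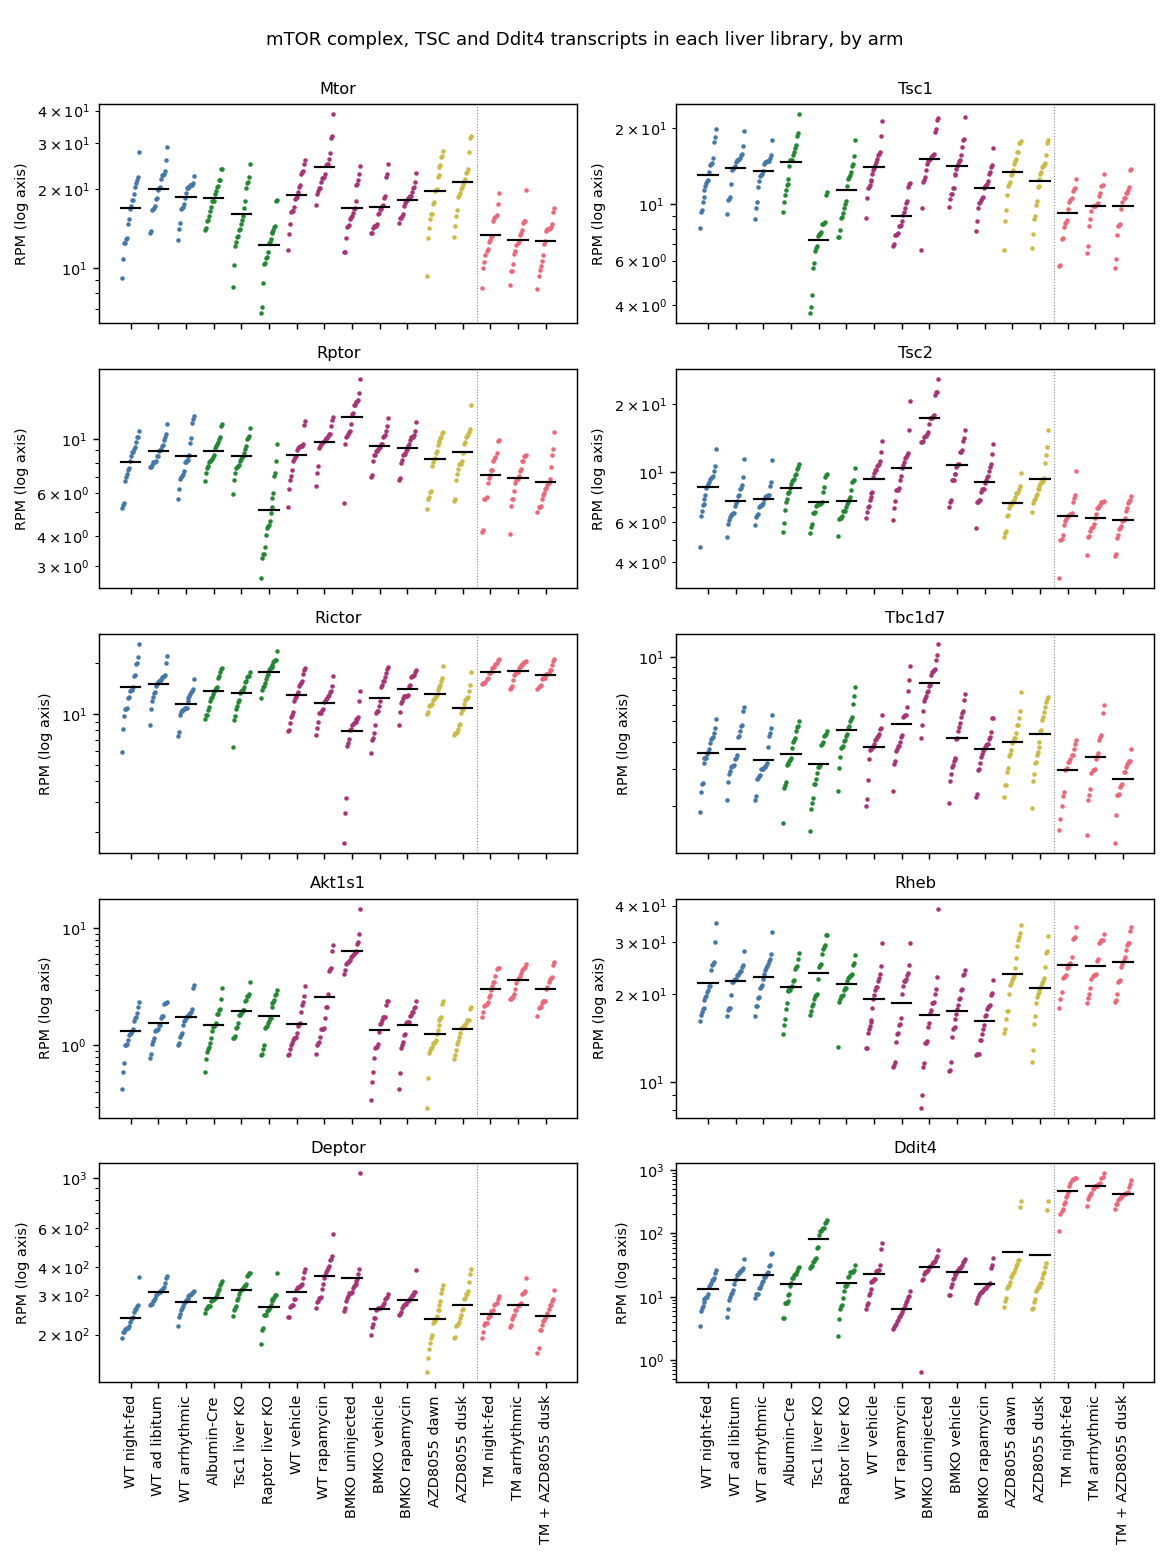
Level of each of the 10 genes in every library, in RPM on a log axis, with 1 panel per gene and 1 column per arm; points are libraries, the black bar is the arm mean, and the dotted line separates the tunicamycin arms, which were normalized separately. Ddit4 spans arm means from 6.32 to 553 RPM, while Rheb stays between 16.2 and 25.7 RPM.

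Ddit4 lies on chromosome 10 (59949669 to 59951834, minus strand, GRCm38) and is known to be induced by many stresses. Arm means of Ddit4 in the first table ran from 6.32 ± 1.29 RPM (SD within times, n = 18) under rapamycin in WT to 83.2 ± 17.7 RPM (n = 18) in the Tsc1 knockout. With the arms put in order of level, including the tunicamycin arms, 2 of the 15 gaps between neighbours exceeded the larger of the neighbours' SDs. These were the gap below the tunicamycin arms, which came from another table, and the gap between night-fed WT at 13.1 RPM and WT under rapamycin at 6.32 RPM. For the other genes at most 1 of 15 such gaps did so, and none did for Deptor and Rheb. Because the levels of Ddit4 moved most, the 186 bases just upstream of its GENCODE start are shown, as given by RefSeq for GRCm38.p6 (chr10:59951835-59952020, minus strand, 5′ to 3′), with a hypoxia response core and both CCAAT boxes, which are read here as ATTGG from the opposite strand, in capitals.
Ddit4: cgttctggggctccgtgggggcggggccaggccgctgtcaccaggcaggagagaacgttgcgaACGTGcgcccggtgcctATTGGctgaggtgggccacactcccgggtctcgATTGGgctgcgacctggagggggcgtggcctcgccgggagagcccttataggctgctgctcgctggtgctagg

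Promoters of 9 of the 10 genes were in the RefSeq table, and 250 bases before each start were searched on both strands. The hypoxia response core ACGTG began 187 bases before the RefSeq start of Ddit4, and 16.6% of the 32851 promoters searched held it. The CCAAT boxes of Ddit4 lay 170 and 137 bases before the RefSeq start. That start lies downstream of the GENCODE start, where the stretch printed above ends. The distances are therefore longer than those to the end of that stretch. CCAAT was present in 33.8% of all promoters, and Mtor held 4 and Rictor 1. Rptor held 1 ACGTG, Rheb 2 and Tbc1d7 3. The E-box CACGTG, which contains ACGTG, occurred once each in Tbc1d7 and Rheb and in 6.02% of all promoters. None of the 9 windows held TGATGNAA, the composite site of ATF4 (3.45% of all), TGTTTAC, a FOXO site (3.17%), or AGAACA, a glucocorticoid receptor half-site (16.1%). A match is a description of letters only.

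Loss of Tsc1 in the liver, which releases mTORC1 from its main brake, went with a rise of Ddit4 transcripts. The 18 Albumin-Cre libraries had Ddit4 levels of 4.67 RPM at the lowest, 15.7 at the median and 29.2 at the highest. The 18 Tsc1-knockout libraries had 28.8, 77.7 and 163 RPM. At each of the 6 times, every Tsc1-knockout library was above every Albumin-Cre library. The difference was 2.30 ± 0.12 (SE), a 4.93-fold rise with a 95% interval of 2.07 to 2.54 on the log2 scale (limma, adjusted p = 3.03e-19). At ZT 22 the mean was 142 ± 23.2 RPM (SD, n = 3) in the knockout and 25.8 ± 3.22 RPM in Albumin-Cre, and at ZT 6 it was 32.2 ± 4.24 and 7.77 ± 3.05 RPM.

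Mtor itself was lower in the Tsc1 knockout. Its libraries ran from 8.45 over a median of 14.98 to 25.1 RPM in the knockout and from 13.9 over 18.1 to 24.0 RPM in Albumin-Cre. All knockout libraries lay below all Albumin-Cre libraries at 4 of 6 times. The difference of -0.24 ± 0.08 (limma, adjusted p = 0.0155) was not called without replicate 2 (adjusted p = 0.121) or without replicate 3 (adjusted p = 0.0875). The tag for Tsc1, which checks the labels, was 0.99 lower on the log2 scale (SE 0.08, adjusted p = 1.09e-12 by limma). The remaining 7 genes were not called, among them Rheb (+0.15 ± 0.09) and the partners Tsc2 (-0.19 ± 0.08) and Tbc1d7 (-0.15 ± 0.12). In all, 3 of 10 were called, 1 higher and 2 lower, beside 36.6% of the 12267 genes tested. The lower ones include Tsc1, whose fall was set by the deletion. The median difference of the 10 was -0.05, against -0.01 over all genes tested.

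Among 61 other pathway genes tested, 14 were higher and 4 lower in the Tsc1 knockout. Over all 12267 genes tested, 36.6% were called in either direction. Sesn3, a sestrin that restrains mTORC1, differed by +1.22 and the translation repressors Eif4ebp1 and Eif4ebp2 by +0.89 and +0.90. Akt1, the kinase upstream, differed by +0.69. Of 8 fasting targets of FOXO factors, which AKT keeps out of the nucleus, 6 were higher and none lower, with a median of +0.62; Depp1 (+1.46) and the glucose-releasing phosphatase gene G6pc (+0.69) were among them, as was Sesn3. Of 8 targets of the integrated stress response, 3 were higher, led by Asns (+3.15), the asparagine synthetase. Of 8 glucocorticoid targets 1 was higher and 2 were lower. Of 9 Kupffer cell markers 2 were lower, and their summed level was 125 to 281 RPM beside 166 to 357 RPM in Albumin-Cre; their part in these differences was not tested.

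Loss of Raptor in the liver, which removes mTORC1, went with lower Mtor and higher Rictor transcripts, while Ddit4 was not called. Ddit4 ran from 2.43 over a median of 15.6 to 31.6 RPM in the 18 Raptor-knockout libraries, and overlapped Albumin-Cre at all 6 times. Its difference was -0.01 ± 0.12 (95% interval -0.24 to 0.23, adjusted p = 0.975 by limma). Both knockouts were compared with the same Albumin-Cre libraries, so the values of Ddit4, +2.30 and -0.01, stand side by side and are not independent.

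Mtor was lower in the Raptor knockout, at 6.71 over a median of 12.6 to 18.2 RPM. All of its libraries lay below all Albumin-Cre libraries at 5 of 6 times, and the difference was -0.60 ± 0.08, a 1.52-fold fall (limma, adjusted p = 2.52e-08). Rptor, the targeted gene, was 0.80 ± 0.10 lower on the log2 scale (adjusted p = 2.19e-08 by limma). Rictor was higher: its knockout libraries ran from 12.4 over 18.4 to 23.6 RPM, against 9.28 over 13.4 to 18.9 RPM. The Rictor difference was 0.39 ± 0.09 (limma, adjusted p = 0.000524), with all knockout libraries above all Albumin-Cre libraries at 3 of 6 times. Tsc1 was lower by 0.35 ± 0.08 (adjusted p = 0.000646 by limma; 0.0623 without replicate 3). Deptor was lower by 0.15 ± 0.06 (limma, adjusted p = 0.0307; 0.456 without replicate 3), and Tbc1d7 was higher by 0.32 ± 0.12 (adjusted p = 0.0364; 0.186 without replicate 1). Leaving out replicate 3 left 3 of these 6 calls.

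In all, 6 of 10 genes were called in the Raptor knockout, 2 higher and 4 lower, beside 42.4% of 12267 genes tested. The lower ones include Rptor, whose fall was set by the deletion. The median difference of the 10 was -0.08 against -0.01 over all genes. The authors' own scaling shifts the median of all genes by -0.23 in this comparison. Under it the Rictor and Tbc1d7 calls are lost (adjusted p = 0.151 and 0.499) and Rheb, at +0.03 here, takes the other sign. Of 61 other pathway genes, 10 were higher and 12 lower. The lysosomal Ragulator subunit Lamtor4 differed by +0.55, the kinase assembly factor Tti1 by -0.66, the LKB1 partner Strada by -0.63 and Eif4ebp2 by -0.53, the last against +0.90 in the Tsc1 knockout. Of 9 Kupffer cell markers 4 were higher, with a summed level of 196 to 361 RPM; their part was not tested.

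**Figure D2:**
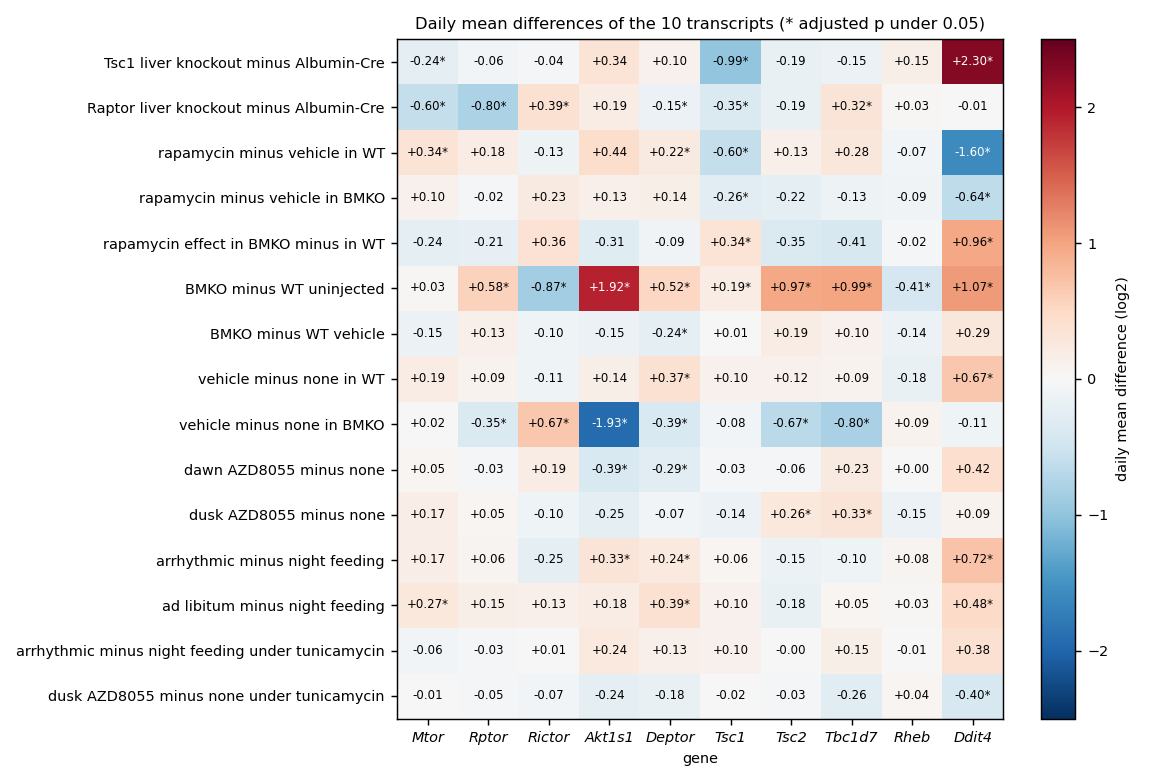
Heat map of the daily mean log2 difference of each gene (columns) in each of the 15 comparisons (rows). An asterisk marks limma's adjusted p under 0.05. Ddit4 is +2.30 in the Tsc1 knockout and -1.60 under rapamycin in WT. The row for BMKO minus WT uninjected holds 9 asterisks.

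Rapamycin lowered Ddit4 and Tsc1 in WT liver. Ddit4 ran from 6.54 over a median of 18.5 to 69.5 RPM in the 18 vehicle libraries and from 3.15 over 5.63 to 12.4 RPM in the 18 rapamycin libraries. At each of the 6 times all rapamycin libraries were below all vehicle libraries. The difference was -1.60 ± 0.22, a 3.02-fold fall (limma, adjusted p = 1.23e-07). It was largest at ZT 14, where rapamycin libraries had 3.38, 3.61 and 6.45 RPM and vehicle libraries 17.3, 57.9 and 69.5 RPM (-3.12, limma, adjusted p = 0.00073 at that time; 0.212 without replicate 2 and 0.127 without replicate 3). Uninjected night-fed WT livers had 8.16 to 16.6 RPM at ZT 14, so the vehicle libraries were themselves above them there.

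Tsc1 fell by 0.60 ± 0.08 on the log2 scale under rapamycin in WT (limma, adjusted p = 9.63e-08). Its libraries ran from 6.88 over 8.46 to 12.1 RPM, against 8.84 over 13.8 to 21.3 RPM with vehicle, and did not overlap at 5 of 6 times. Mtor was higher by 0.34 ± 0.09 (adjusted p = 0.00294 by limma), and Deptor by 0.22 ± 0.08 (adjusted p = 0.0388; 0.305 without replicate 2 and 0.321 without replicate 3). Mtor overlapped vehicle at all times except ZT 22. There the rapamycin libraries had 22.9, 27.5 and 31.9 RPM and the vehicle libraries 13.5, 14.7 and 17.1 RPM (+0.83, limma, adjusted p = 0.0369). The highest of those values came from a library of 706440 reads with 25 reads of Mtor, and without the shallow libraries the adjusted p at ZT 22 was 0.366. The daily Mtor call was not made without replicate 3 (adjusted p = 0.0573).

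In all, 4 of 10 genes were called under rapamycin in WT, 2 in each direction, beside 18.5% of 12413 genes, and the median difference was 0.16 against 0.00 over all genes. At single times, 3 of 60 gene-by-time pairs were called, beside 0.295% of such pairs over all genes: Ddit4 at ZT 14, and Mtor and Tsc1 at ZT 22. Each of these 3 was lost when some single replicate was left out. Akt1s1 (+0.44 ± 0.18) was not called. Its replicate 1 libraries under rapamycin had 2.13 to 7.26 RPM and those of replicates 2 and 3 had 0.844 to 4.62 RPM. Of 61 other pathway genes 5 were higher and 4 lower. Nprl3, a subunit of the GATOR complex that senses amino acids, differed by +0.73, the GATOR subunit Sec13 by +0.58, Sesn3 by -0.73 and the translation-factor kinase Eef2k by -0.49. Of 7 hepatocyte markers 3 were lower, with a summed level of 42599 to 75145 RPM beside 67704 to 114030 RPM under vehicle; their part in these differences was not tested.

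In BMKO mice, which lack a core activator of the circadian clock, the same 2 genes were lower under rapamycin by less. Ddit4 ran from 7.86 over 13.4 to 41.2 RPM under rapamycin and from 10.5 over 24.8 to 39.2 RPM under vehicle, with no overlap at only 2 of 6 times. The difference was -0.64 ± 0.22 (limma, adjusted p = 0.047), and was not called without replicate 1 (-0.45, adjusted p = 0.201) or without replicate 3 (adjusted p = 0.331). Tsc1 fell by 0.26 ± 0.08 (adjusted p = 0.0286 by limma; 0.299 without replicate 2 and 0.204 without replicate 3), from a mean of 14.1 ± 2.84 RPM (SD within times, n = 18) to 11.6 ± 1.84 RPM. So 2 of 10 genes were called, both lower, beside 11.9% of 12413 genes. Both calls are lost when same-numbered libraries within an arm are treated as correlated (adjusted p = 0.435 for Ddit4 and 0.396 for Tsc1, limma). No single-time pair of 60 was called by limma, beside 0.145% over all genes; 1 had an unadjusted p under 0.05, and edgeR and DESeq2 called 0. Of 61 other pathway genes 5 were higher and 2 lower, among them Pik3r1 (+0.83), Lpin1 (+0.96), Strada (+0.67) and Eif4ebp1 (-0.29).

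The difference between the genotypes was tested directly. For Ddit4 the rapamycin effect was 0.96 ± 0.31 less negative in BMKO than in WT (limma, adjusted p = 0.0295), and for Tsc1 0.34 ± 0.12 (adjusted p = 0.0378). These 2 of 10 calls stand beside 14.3% of 12413 genes.  The Ddit4 interaction was 0.47 without replicate 2 (adjusted p = 0.457) and had adjusted p = 0.102 without replicate 3, and the Tsc1 interaction was lost without each of the 3 replicates (adjusted p = 0.394, 0.117 and 0.0703). With the correlation of same-numbered libraries within an arm taken into account, the adjusted p was 0.338 for Ddit4 and 0.391 for Tsc1. For Mtor, +0.34 in WT and +0.10 in BMKO, the difference of -0.24 ± 0.12 was not called.

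**Figure D3:**
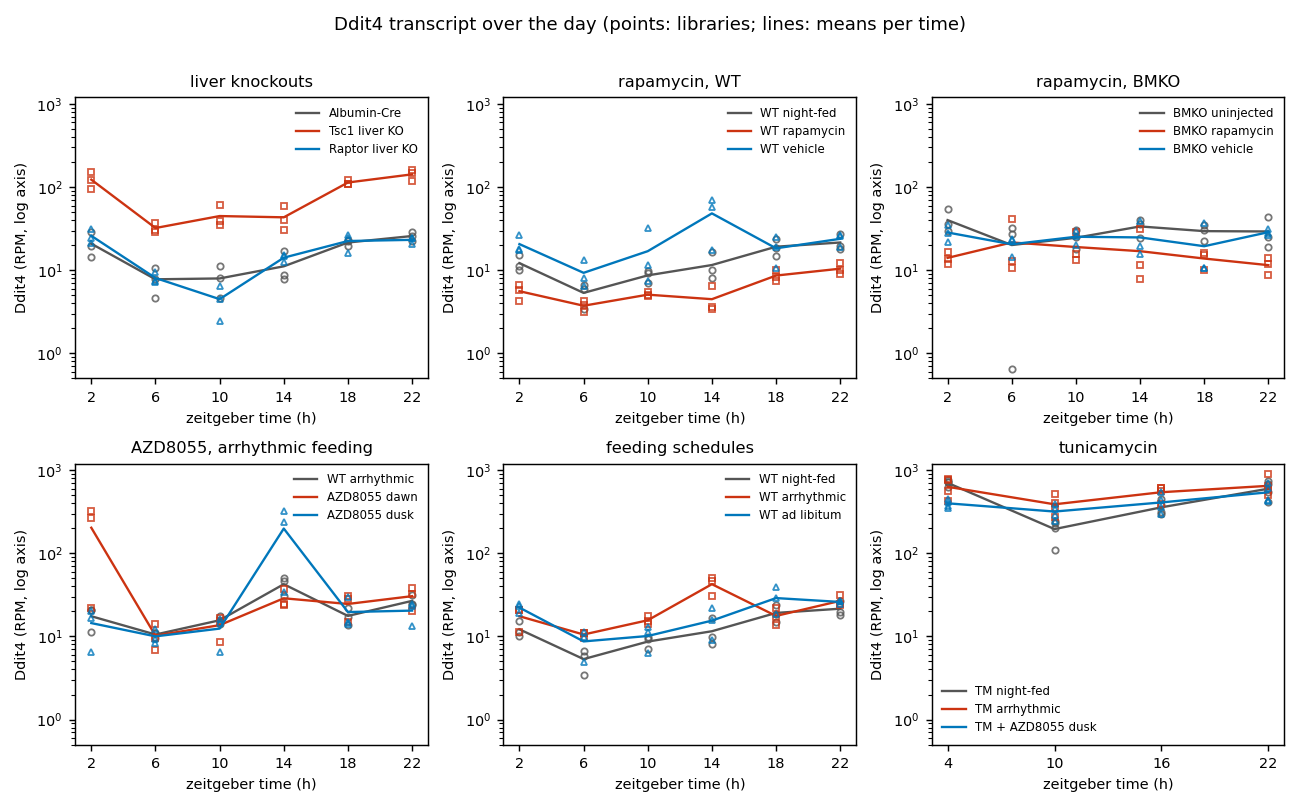
Ddit4 level in RPM on a log axis against ZT in hours, in 6 panels that each set the arms of a comparison side by side; points are libraries and lines join the means of each time. The Tsc1-knockout line lies above Albumin-Cre and the rapamycin line below vehicle in WT at all 6 times, and under AZD8055 the points part at ZT 2 (dawn) and ZT 14 (dusk).

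AZD8055, given at dawn or dusk to arrhythmically fed mice, went with brief differences of Ddit4 at the first time after injection. At ZT 2 after dawn injection the 3 libraries had Ddit4 levels of 325, 263 and 21.96 RPM, against 20.6, 20.6 and 11.2 RPM uninjected. The difference at that time was 2.84 ± 0.60, a 7.16-fold rise (limma, adjusted p = 0.00179). At ZT 14 after dusk injection the libraries had 323, 239 and 34.0 RPM, against 30.8, 49.9 and 46.8 RPM (1.72 ± 0.60, adjusted p = 0.0414 by limma), and the groups overlapped. In both cases replicates 1 and 2 were high and replicate 3 was near the uninjected level. Neither call was made without replicate 1 (limma, adjusted p = 0.094 at dawn and 0.566 at dusk) or without replicate 2 (0.123 and 0.225).

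Some other genes, picked after their values were seen, are given for the replicate 3 livers. Genes picked in this way cannot show whether those livers responded to the dose, which was not tested. Lcn2, an acute-phase and glucocorticoid-responsive gene, had 93.9 RPM in replicate 3 at ZT 2 and 69.9 RPM at ZT 14. Uninjected libraries of those times had at most 1.86 RPM. Irs2, the insulin receptor substrate induced by fasting, had 115 and 44.5 RPM in replicate 3, against at most 10.2 RPM uninjected. Not all genes looked at in this way differed: at ZT 14 Fkbp5 had 50.4 RPM in replicate 3 against 55.0 to 76.4 RPM, and Sesn2 1.73 against 2.01 to 3.36 RPM. Chac1 in replicate 3 at ZT 14 had 4.97 RPM, above 0.125 to 1.74 RPM uninjected but below 13.8 and 23.2 RPM in the other dosed libraries. At ZT 2 its level in replicate 3 was 7.06 RPM, against 1.31 to 2.29 RPM uninjected. At the other 5 times in each arm Ddit4 was not called, with differences between -0.56 and 0.43 for dawn and -0.42 and 0.10 for dusk. Averaged over the day, Ddit4 differed by +0.42 at dawn (limma, adjusted p = 0.167) and +0.09 at dusk, and was not called. The count tests called the dawn difference, at 0.57 (adjusted p = 0.0379 by edgeR and 0.0361 by DESeq2).

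Deptor, the mTOR inhibitor, fell after dawn injection. At ZT 10 the libraries had 157, 173 and 199 RPM against 257, 310 and 312 RPM, and at ZT 14 they had 135, 194 and 230 RPM against 277, 288 and 301 RPM. Neither pair of groups overlapped, and the differences were -0.73 (limma, adjusted p = 0.00197) and -0.66 (adjusted p = 0.0115). The daily Deptor difference was -0.29 ± 0.07 (adjusted p = 0.00138 by limma). Tsc1 was lower at ZT 10 after dawn injection, at 6.60, 8.63 and 9.53 RPM against 10.2, 13.2 and 14.6 RPM (-0.59, limma, adjusted p = 0.0198). After dusk injection it was lower at ZT 18, at 6.75, 7.66 and 8.73 RPM against 11.7, 13.5 and 14.8 RPM (-0.75, adjusted p = 0.00419). In both arms the Tsc1 groups did not overlap at the time called.

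Mtor was higher at night after dusk injection. It had 21.0, 21.8 and 31.4 RPM at ZT 18 against 14.2, 14.9 and 16.8 RPM, and 21.5, 27.9 and 32.1 RPM at ZT 22 against 12.8, 17.6 and 20.8 RPM. The groups did not overlap, and both differences were +0.66 (limma, adjusted p = 0.0436 and 0.0407). Tbc1d7 at ZT 22 was the fifth pair called (+0.71, adjusted p = 0.0485). So 4 of 60 gene-by-time pairs were called after dawn injection, beside 10.2% over all genes, and 5 of 60 after dusk injection, beside 12.6%. All 4 and all 5 of these calls were lost when some single replicate was left out.

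On the daily mean 2 of 10 genes were called in each AZD8055 arm, beside 41.0% of 12413 genes for dawn and 50.8% for dusk. At dawn these were Deptor and Akt1s1 (-0.39 ± 0.14, limma, adjusted p = 0.02). At dusk they were Tsc2 (+0.26 ± 0.09, adjusted p = 0.015) and Tbc1d7 (+0.33 ± 0.11, adjusted p = 0.00887). Without replicate 1 the adjusted p was 0.117 for Akt1s1, 0.206 for Tsc2 and 0.283 for Tbc1d7. Both arms share the uninjected libraries. Of 61 other pathway genes, 20 were higher and 9 lower at dawn, and 21 were higher and 12 lower at dusk. Akt1 differed by +0.59 and +0.81, the Ragulator subunits Lamtor3 by +0.74 and +0.78 and Lamtor4 by +0.38 and +0.56, and Irs2 by +1.06 at dawn. Of 8 FOXO targets 5 were lower at dawn and 4 at dusk, and 2 were higher in each. Lcn2, among 3 of 8 glucocorticoid targets that were higher at dawn, differed by +7.24. Of 9 Kupffer cell markers 3 were higher at dawn and 5 at dusk, with summed levels of 200 to 437 and 197 to 464 RPM beside 182 to 299 RPM uninjected; their part was not tested.

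**Figure D4:**
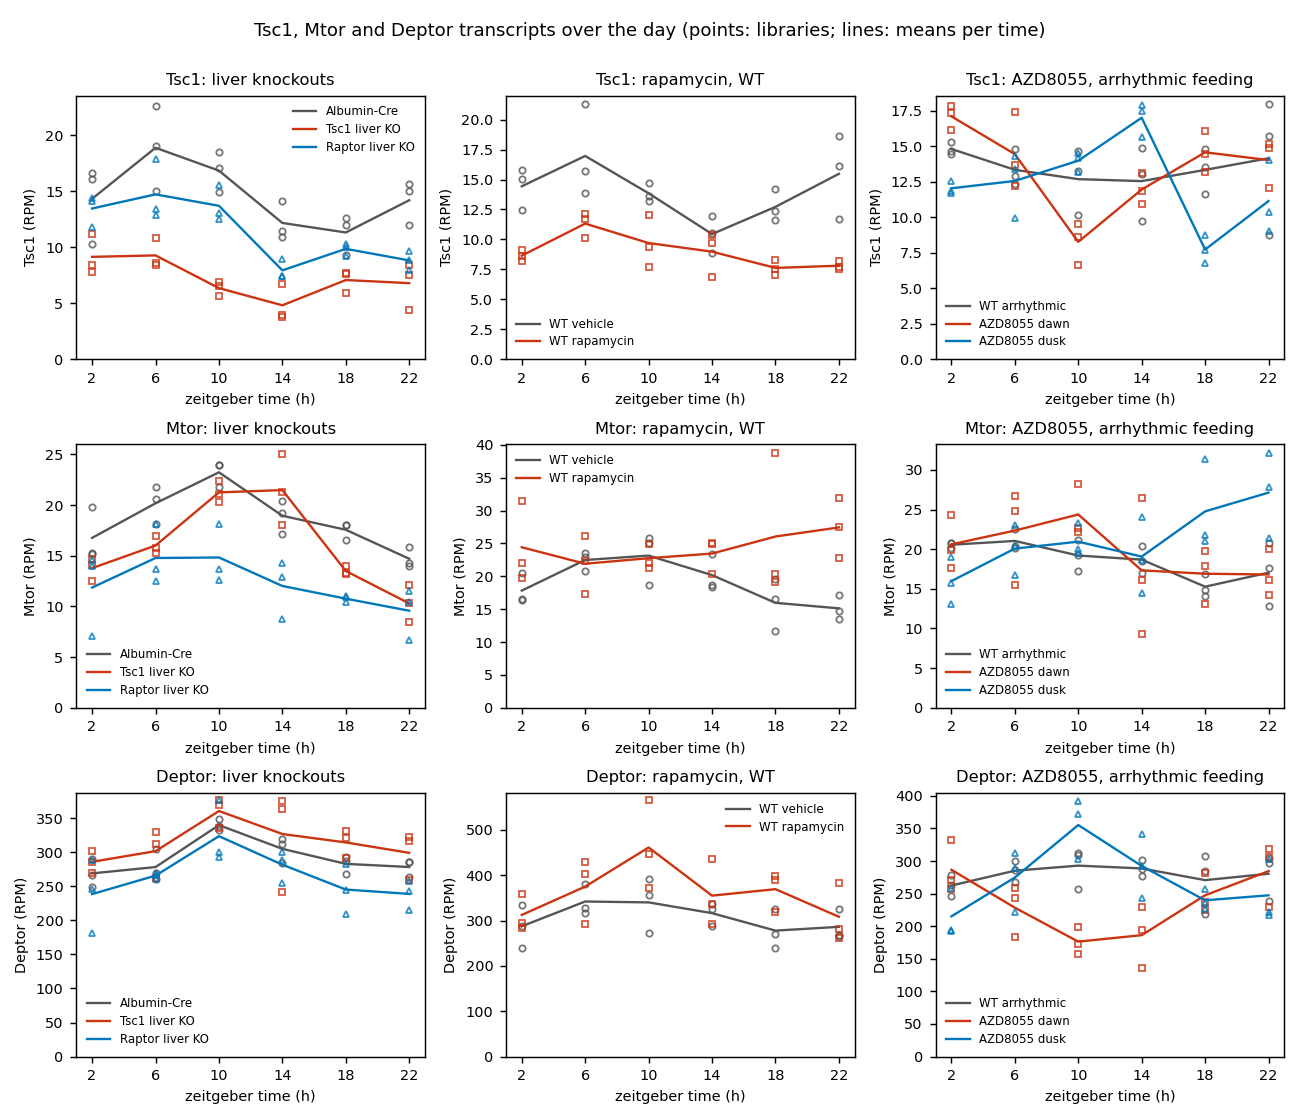
Levels of Tsc1, Mtor and Deptor (rows) in RPM on a linear axis from 0 against ZT in hours, in 3 comparisons (columns); points are libraries and lines join the means of each time. Rapamycin lies below vehicle for Tsc1, and Deptor after dawn AZD8055 dips to 176 RPM at ZT 10 and 186 RPM at ZT 14.

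Arrhythmic and ad libitum feeding went with higher Ddit4 and Deptor than in the uninjected night-fed WT arm. Ddit4 ran from 9.59 over 19.1 to 49.9 RPM under arrhythmic feeding and from 3.46 over 10.6 to 26.9 RPM under night feeding. The difference was 0.72 ± 0.12 (limma, adjusted p = 6.43e-06), without overlap at 3 of 6 times. At ZT 14 arrhythmically fed livers had 42.5 ± 10.2 RPM (SD, n = 3) and night-fed livers 11.5 ± 4.42 RPM. Under ad libitum feeding Ddit4 ran from 4.86 over 18.8 to 39.3 RPM, a difference of 0.48 ± 0.12 (adjusted p = 0.00116 by limma) with overlap at 5 of 6 times.

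Deptor was 0.24 ± 0.05 higher under arrhythmic and 0.39 ± 0.05 higher under ad libitum feeding (limma, adjusted p = 8.99e-05 and 1.26e-08). Uninjected night-fed WT libraries had 193 to 362 RPM of Deptor, arrhythmically fed ones 219 to 312 RPM and ad libitum ones 270 to 364 RPM. The arm means were 238, 280 and 309 RPM. Other night-fed arms were above 238 RPM as well, with means of 292 RPM in Albumin-Cre and 308 RPM in WT with vehicle. The Deptor differences are thus specific to the uninjected night-fed WT arm as reference. Akt1s1 was higher by 0.33 ± 0.13 under arrhythmic feeding (adjusted p = 0.04), and Mtor by 0.27 ± 0.08 under ad libitum feeding (adjusted p = 0.00397; 0.126 without replicate 2). With 3 of 10 genes called in each comparison, all higher, the backgrounds were 44.0% and 53.0% of 12413 genes. Both comparisons share the night-fed libraries. Of 61 other pathway genes 13 were higher and 17 lower under arrhythmic feeding, and 15 were higher and 23 lower under ad libitum feeding. Lamtor3 differed by -0.93 and -0.98.

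Tunicamycin arms held far higher Ddit4 levels than the uninjected arms with the same feeding. The tables were normalized separately and have no untreated arm in common, so levels are set side by side without a test. At ZT 10, night-fed livers had 196 ± 60.7 RPM of Ddit4 (SD, n = 4) under tunicamycin and 8.66 ± 1.43 RPM (n = 3) uninjected. At ZT 22 they had 599 ± 148 and 21.6 ± 4.71 RPM. Arrhythmically fed livers had 389 ± 103 and 15.6 ± 1.81 RPM at ZT 10. The ranges were far apart at ZT 10 and 22, the only times sampled in both tables. The lowest Ddit4 level of any tunicamycin library was 109 RPM. The arm means given next average over different times in the tunicamycin and uninjected arms. Arm means of Mtor lay between 12.7 and 13.4 RPM under tunicamycin and at 16.9 and 18.6 RPM in the uninjected night-fed and arrhythmically fed arms. Those of Tsc1 lay between 9.23 and 9.87 RPM, beside 13.1 and 13.5 RPM. Rictor lay at 17.1 to 17.9 RPM beside 14.4 and 11.5 RPM, and Akt1s1 at 3.04 to 3.63 RPM beside 1.32 and 1.77 RPM.

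Among the tunicamycin arms few of the 10 genes were called. Between arrhythmic and night feeding no gene of the 10 was called by limma, beside 0.555% of 12261 genes; 2 had an unadjusted p under 0.05, edgeR called 0 and DESeq2 called 1. Ddit4, at 553 ± 139 RPM (SD within times, n = 16) against 464 ± 91.4 RPM, differed by 0.38 (limma, adjusted p = 0.107; 0.0461 by DESeq2). AZD8055 at dusk on top of tunicamycin lowered Ddit4, to 417 ± 95.4 RPM. The difference was -0.40 ± 0.11 (limma, adjusted p = 0.0209), with a lower mean at 4 of 4 times and overlapping libraries at each. It was 1 of 10 calls, beside 8.85% of genes, and was not made without replicate 2, 3 or 4 (adjusted p = 0.076, 0.0562 and 0.175). No single-time pair of 40 was called by limma, beside 1.17% over all genes; 4 had an unadjusted p under 0.05, and edgeR and DESeq2 called 0. Of 60 other pathway genes none was called for feeding by limma, and for AZD8055 2 were higher and 5 lower, with Lpin1 (-1.08), Sesn1 (-0.82), Eif4ebp2 (-0.28) and Prkag1 (+0.22) named.

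The uninjected BMKO arm differed from uninjected WT in 9 of the 10 genes, beside 71.7% of all 12413 genes. Akt1s1 had 4.05 over a median of 5.90 to 14.7 RPM, against 0.422 over 1.27 to 2.33 RPM in WT, with no overlap at any time (1.92 ± 0.18, limma, adjusted p = 1.37e-15). Tsc2 (+0.97 ± 0.11), Tbc1d7 (+0.99 ± 0.12), Ddit4 (+1.07 ± 0.22), Rptor (+0.58 ± 0.09), Deptor (+0.52 ± 0.08) and Tsc1 (+0.19 ± 0.08; adjusted p = 0.44 without replicate 2) were also higher. Rictor (-0.87 ± 0.14) and Rheb (-0.41 ± 0.12) were lower, and Mtor was not called (+0.03). With vehicle in both genotypes, 1 of 10 genes was called, beside 21.7% of genes: Deptor was lower by 0.24 ± 0.08 (limma, adjusted p = 0.02; 0.244 without replicate 2). The 2 BMKO minus WT comparisons share no libraries. Under the authors' own scaling, which shifts the median of all genes by 0.32 in the vehicle comparison, the Deptor difference there takes the other sign (+0.10, adjusted p = 0.274).

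Vehicle was also compared with no injection. In BMKO 6 of 10 genes were called, beside 60.4% of genes. They were led by Akt1s1 (-1.93 ± 0.18), Tbc1d7 (-0.80 ± 0.12), Tsc2 (-0.67 ± 0.11) and Rictor (+0.67 ± 0.14). This comparison uses the same uninjected BMKO libraries as above, so an effect of vehicle cannot be told from what sets that arm apart. The authors' scaling shifts the median of all genes by 0.27 there, and Rptor (-0.35 ± 0.09) and Deptor (-0.39 ± 0.08) are then not called (adjusted p = 0.465 and 0.293). Under it Tsc1, not called here, takes the other sign. In WT, vehicle went with higher Ddit4 (+0.67 ± 0.22, limma, adjusted p = 0.0175; a difference of 0.46 with adjusted p = 0.321 without replicate 2) and Deptor (+0.37 ± 0.08, adjusted p = 0.00021). These 2 of 10 calls stand beside 27.3% of genes. The uninjected night-fed WT libraries used here are those of the feeding comparisons. Of 9 Kupffer cell markers 6 were lower and 2 higher in uninjected BMKO than in uninjected WT, a comparison in which 71.7% of 12413 genes were called. The 7 hepatocyte markers summed to 28024 to 60077 RPM in uninjected BMKO beside 70500 to 91153 RPM in WT. Their part in these differences was not tested.

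Daily rhythms were tested by a 24 h cosine in each arm. Of 160 gene-by-arm pairs 28 were called (17.5%), beside 14.2% over all genes. Leaving out a replicate brought the 28 down to between 9 and 16 for replicates 1, 2 and 3. Ddit4 was called in 11 of 16 arms, Tsc1 in 6, Deptor in 5, Mtor in 4, and Rictor and Tbc1d7 in 1 each. Rptor, Akt1s1, Tsc2 and Rheb were called in none. Among the AZD8055 arms 3 genes were called for dawn, 4 for dusk and 2 for dusk with tunicamycin. That drug was given at a fixed clock time, so a cosine there cannot tell a daily rhythm from a response to the dose. None of the 10 genes was called by limma or edgeR in any of the 3 BMKO arms, where few genes were called at all: 5.61%, 5.49% and 0.274% in the uninjected, vehicle and rapamycin arms. At an unadjusted p under 0.05 there were 3, 1 and 1. In uninjected night-fed WT livers Ddit4 had a log2 amplitude (mean to peak) of 0.88 ± 0.11 (SE) and a peak at ZT 19.8. In night-fed WT livers with vehicle it was not called (0.60 ± 0.21, limma, adjusted p = 0.128), and its level was highest at ZT 14. The Albumin-Cre, Tsc1-knockout and Raptor-knockout arms had amplitudes of 0.98, 1.12 and 1.16 with peaks at ZT 21.3, 21.7 and 21.5. The Ddit4 curves of neither knockout were called as different from Albumin-Cre in rhythm (limma, adjusted p = 0.948 for Tsc1 and 0.99 for Raptor).

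Under arrhythmic feeding the cosine fitted to Ddit4 had an amplitude of 0.59 ± 0.09 and a peak at ZT 17.0. The means were 42.5 RPM at ZT 14, 17.6 RPM at ZT 18 and 26.8 RPM at ZT 22. The fitted peak was thus not the time of the highest mean. The difference in rhythm from night feeding was not called (adjusted p = 0.0912 by limma). Under tunicamycin the night-fed arm had an amplitude of 0.96 ± 0.11 and a peak at ZT 0.0787. Mtor peaked at ZT 9.95 in night-fed WT (0.45 ± 0.09) and Albumin-Cre (0.28 ± 0.05) and at ZT 10.8 in the Tsc1 knockout (0.49 ± 0.06). Between arms, 1 of 150 rhythm differences was called, beside 2.36% over all genes. It was Deptor after dawn AZD8055, with an amplitude of 0.39 and a peak at ZT 23.5 against an amplitude of 0.06 uninjected (limma, adjusted p = 0.00576). This call was lost when 1 of the replicates was left out (limma, adjusted p = 0.141).

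Over the 78 arm-by-time means of the first table, which share libraries, scaling and depth, the gene whose log2 level followed Ddit4 most closely was Cyp2b10 (Spearman rho 0.65), ahead of Acmsd (0.64) and Slco2a1 (0.63). For Tsc1 it was Camk1d (0.73), for Deptor Nfix (0.77), for Tsc2 Ndufs6 (0.80), for Rheb Snhg6 (0.75) and for Rictor Sp3 (0.74). For Mtor it was 5031439G07Rik (0.70), for Rptor Bcs1l (0.70) and for Tbc1d7 Gtf2h4 (0.73). Between the genes themselves rho ran from -0.57 for Tsc2 with Rheb to 0.56 for Rptor with Tsc2. These are descriptions, and the uninjected BMKO arm contributes 6 of the 78 points.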

How the data were processed

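Livers of 282 mice were profiled with QuantSeq 3′ mRNA libraries. The submitters' processing notes name STAR 2.7.3a, SAMtools and the build mm10 (GRCm38.p6). How reads were counted, on which gene models, and how values were scaled is not given in the sources used here. Values deposited by the authors are a signal: counts multiplied by a step that differs between libraries. Division by the step gave whole reads (within 0.01) for 100% of values, except in the Raptor-knockout arm, where 197 genes were off the step in at least 1 library and were dropped from every fit of that arm. No column of values was left unmapped.

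Reads were rescaled by TMM (edgeR 4.0.16) to RPM, genes with a mean of at least 1 were kept, and log2(value + 0.5) was fitted with limma 3.58.1 in R 4.3.3 with a mean for each arm and time. P-values set each difference against the spread between libraries of the same arm and time, with the libraries treated as independent. Daily means, single times, 24 h rhythms and rhythm differences were tested, with Benjamini-Hochberg adjustment over all genes. Scripts were tested on simulated data. Alternatives were edgeR and DESeq2 1.42.0 on the recovered reads, other size factors, the authors' scaling, no filter, pseudocounts of 0.1 and 2, a joint fit, a replicate block, leaving out the 3 shallowest libraries and leaving out each replicate. A random block within arms and leaving out uninjected BMKO were added after seeing the data. The members and lists were chosen with earlier results of these data known. Text names all 10 genes and, in each comparison, up to 4 other pathway genes with the smallest adjusted p.

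Replicate numbers were not taken to pair the libraries across arms. The median correlation of same-numbered libraries' deviations lay between -0.03 and 0.16 over 14 comparisons. No comparison had every pair above 0.1, but rapamycin in BMKO had 11 of 18 pairs above it and ad libitum feeding 10 of 18. Within arms, same-numbered libraries had median correlations between -0.002 and 0.481. The highest was in BMKO with vehicle, against -0.364 for libraries with other numbers.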

Additional observations from a re-analysis of the deposited data

Results flagged for a closer look

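The rapamycin effect on Ddit4 differed between genotypes by 0.96 on the log2 scale, and that on Tsc1 by 0.342, both by a direct test of the difference (limma, adjusted p = 0.0295 and 0.0378). Both calls are lost when single replicates are left out, as given with the results. The daily curve of Deptor after dawn AZD8055 differed from that of uninjected livers by an amplitude of 0.446 (log2, limma, adjusted p = 0.00576). That call stayed in 12 of 13 alternatives and was lost when 1 of the replicates was left out (limma, adjusted p = 0.141).

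Of 120 groups of 4 libraries tested for a value far from the others, 5 had such a value, where chance gives about 1 in 20. In the arm with tunicamycin and AZD8055 at ZT 22, Mtor was 9.34 RPM in replicate 3, against 14.2 to 14.4 RPM in the other libraries. Tbc1d7 was 2.25 RPM there in replicate 4, against 3.06 to 3.20 RPM. In the arrhythmically fed tunicamycin arm, Tbc1d7 was 2.15 RPM at ZT 4 in replicate 3, and Tsc1 was 13.1 RPM at ZT 16 in replicate 1. In the night-fed tunicamycin arm, Tsc2 was 5.01 RPM at ZT 22 in replicate 4.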

How the results depend on the processing

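The calls of Ddit4 and Tsc1 in the Tsc1 knockout and under rapamycin in WT, and of Mtor and Rptor in the Raptor knockout, kept their direction and stayed called under every alternative run. The correlation of same-numbered libraries within an arm, added as a random block after seeing the data, cost most calls: 2 of 10 genes remained under rapamycin in WT (4 before), 0 under rapamycin in BMKO (2), 0 for the interaction (2), 0 for BMKO minus WT with vehicle (1), 1 for vehicle in WT (2), 1 for dawn AZD8055 (2) and 0 for dusk (2), while rhythm differences rose to 5 (1). The correlation was between 0.061 and 0.223. A fixed replicate block was also run, though the numbers were not taken to pair the libraries across arms. It gave 5 calls for arrhythmic feeding (3), 2 for AZD8055 under tunicamycin (1) and 5 rhythm differences (1). For rapamycin in BMKO 1 gene remained with no filter and 1 with a pseudocount of 0.1. The authors' scaling gave 5 calls for BMKO minus WT with vehicle, 4 for dawn AZD8055 and 2 rhythm differences. It reversed the sign of Rheb in the Raptor knockout (-0.20, adjusted p = 0.0441), of Deptor in BMKO minus WT with vehicle (0.10, adjusted p = 0.274) and of Tsc1 in vehicle minus none in BMKO (0.21, adjusted p = 0.0265). DESeq2 gave 1 call for feeding under tunicamycin (0) and 2 for AZD8055 there. Single-time calls for rapamycin in WT numbered 1 with edgeR and 5 in the joint fit (3), and for dusk AZD8055 3 with DESeq2 size factors and 3 with no filter (5). Rhythm differences numbered 2 with DESeq2 size factors, edgeR, a pseudocount of 2 and the joint fit. DESeq2 was not run for rhythms. The cause of these changes was not tested.

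Leaving out each replicate in turn tests fewer libraries and gave 2 to 3 calls for the Tsc1 knockout, 3 to 5 for the Raptor knockout, 3 to 5 for rapamycin in WT, 0 to 1 for rapamycin in BMKO, 0 to 1 for the interaction, 8 to 9 for uninjected BMKO, 0 to 1 for BMKO minus WT with vehicle, 1 to 2 for vehicle in WT and 6 to 7 in BMKO. It gave 1 to 2 for dawn AZD8055, 0 to 2 for dusk, 2 to 4 for arrhythmic and 2 to 3 for ad libitum feeding, and 0 to 1 for AZD8055 under tunicamycin. Single-time calls ranged over 0 to 2 for rapamycin in WT, 0 to 3 for dawn and 0 to 3 for dusk AZD8055, rhythms over 9 to 27 (28 before) and rhythm differences over 0 to 3. Akt1s1 and Tbc1d7 rest on a median of 14 and 30 reads per library, which limits the differences detectable for them.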
